A study of Mus musculus with 36 samples.

Results

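Mitochondrially encoded transcripts were followed in enteric glial cells (EGCs) as all rows of the count table whose gene symbol starts with mt-, and 37 of its 43472 rows met this rule. They are the 13 protein-coding genes, the 2 rRNA genes and the 22 tRNA genes of the mouse mitochondrial genome, and all 37 were matched by symbol to a GRCm38 annotation, the assembly also named mm10. The cells were primary wild-type EGCs of C57BL/6J mouse embryos, grown out of neurospheres and differentiated in culture. They were left unstimulated, or received H-CM, the supernatant of digested healthy colon, or TME-CM, the supernatant of digested tumors that MC38 cells, a mouse colorectal cancer line, had formed in the colon of mice. RNA was taken after 6, 12 and 24 h, in 4 libraries for each of these 9 groups. Nothing in the labels says that replicates came from separate cultures or animals, so p-values measure only the spread between these libraries. The question was how much of each library fell on mitochondrially encoded RNA, and whether single members moved apart from the rest, with stimulation and with time.

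The mitochondrial chromosome of animals is a small circle present in many copies per cell. It encodes the rRNAs and tRNAs of the mitochondrial ribosome and a few subunits of the respiratory chain complexes I, III and IV and of ATP synthase, also called complex V, while all other subunits come from nuclear genes. Its strands are transcribed into long precursors, the single RNAs are cut out mostly at the tRNAs that lie between them, and mRNAs and rRNAs receive short poly(A) tails, which in several genes complete the stop codon.

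The libraries were made with a QuantSeq kit, which primes on poly(A) and reads each RNA near its 3′ end, so a count is not scaled to the length of a gene. Library totals ranged from 13518 to 5244763 counts at 6 h, from 2005239 to 5961933 at 12 h and from 1608018 to 7552509 at 24 h. H-CM replicate 4 of 6 h, with the lowest total, held 13 detected members against 16 to 31 in the other libraries. TME-CM replicates 1 and 3 of 6 h held the fewest genes of any kind at equal depth, with 8142 and 7118 genes expected in 250000 counts against 9461 to 11736 in the other libraries that reach that depth. The glial genes Sox10 and S100b were detected in all 36 libraries, but so were Acta2, Col1a1 and Col3a1 of the smooth muscle and fibroblast markers, at up to 6829 CPM for Acta2 (counts per 1000000 counts of the library). Of the 9 macrophage markers found in the table, Lyz2 was detected in 35 libraries and Aif1 in 13, while of the epithelial markers Epcam, Krt8 and Vil1 were at 0 in 30, 34 and 32 libraries and Krt18 and Cdh1 were detected in 29 and 20, at no more than 9.07 and 4.25 CPM. In such bulk libraries, fewer cells of a type and less RNA per cell cannot be told apart.

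Over the 36 libraries, 7003046 counts lay on the members. The 2 rRNA genes took 54.7% of them, the 13 protein-coding genes 45.1% and the 22 tRNA genes 0.193%. Mt-Rnr2, the large rRNA of the mitochondrial ribosome, held 36.8% and mt-Rnr1, the small rRNA, 17.9%. Among the mRNAs, 36-library shares above 5% fell to the complex I subunits mt-Nd4 (9.85%), mt-Nd2 (8.40%) and mt-Nd1 (6.42%) and to mt-Cytb (6.08%), the subunit of complex III. The catalytic complex IV subunit mt-Co1 took 3.66%, its partners mt-Co3 and mt-Co2 3.15% and 2.55%, and the ATP synthase subunits mt-Atp6 and mt-Atp8 2.56% and 0.114%. These are shares of counts and give no order of RNA molecules, since priming and read filtering differ between genes. As pooled shares they follow most the libraries with many mt- counts, such as TME-CM replicate 4 (1311758) and unstimulated replicate 4 (777731) of 6 h. Mean rRNA shares of the groups of 24 h were lower, as given below. The 28 members encoded on the plus strand took almost all counts, and the 9 on the minus strand 2347 counts or 0.0335%. Mt-Nd6, the only mRNA of the minus strand, took 0.0154%, and whether counting used the strand is not given in the sources used here, so its reads cannot be told from opposite-strand reads where it overlaps mt-Nd5. The tRNA genes mt-Te, mt-Ts1 and mt-Ty were at 0 in all libraries, and a count of 0 allows up to 3 counts in a library, or from 0.397 CPM in the deepest library to 222 CPM in the shallowest. That limit, like the intervals used here, covers counting error only.

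Because reads start from poly(A), the 3′ ends of the most counted mRNAs are shown first, as the last 50 bases of each annotated gene on its own strand (GRCm38, annotation of GENCODE M21), with the stop codon bases in capitals. The genes lie at chrM:10167-11544 (mt-Nd4), chrM:14145-15288 (mt-Cytb), chrM:3914-4951 (mt-Nd2) and chrM:2751-3707 (mt-Nd1), all on the plus strand.
mt-Nd4: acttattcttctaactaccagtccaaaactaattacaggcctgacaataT
mt-Cytb: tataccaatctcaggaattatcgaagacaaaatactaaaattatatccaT
mt-Nd2: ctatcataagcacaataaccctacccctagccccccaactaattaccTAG
mt-Nd1: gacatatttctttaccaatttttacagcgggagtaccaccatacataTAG
Mt-Nd4 and mt-Cytb, like mt-Co3, end in a lone T, so that their RNA carries a complete stop codon only after polyadenylation. The other 10 of the 13 protein-coding members are annotated with a complete stop codon in the DNA. The last 2 bases of mt-Nd1 and of mt-Nd2 also belong to the tRNA genes mt-Ti and mt-Tw. Whether the RNAs of mt-Nd1 and mt-Nd2 keep these bases was not tested.

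Oligo(dT) can also prime on A bases inside an RNA. Runs of at least 7 A bases occur in 6 members, 5 of them among the mRNAs and rRNAs, and the runs of mt-Nd2 (chrM:4037-4074) and mt-Rnr2 (chrM:1473-1509) are shown in capitals with 15 bases on each side, plus strand.
mt-Nd2: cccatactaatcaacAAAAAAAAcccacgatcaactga
mt-Rnr2: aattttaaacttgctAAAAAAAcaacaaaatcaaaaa
The count table holds no read positions, so whether reads began at these runs was not tested. The tRNA genes mt-Tt and mt-Td are given whole because they carried the largest changes with time among members called in TME-CM EGCs. The threonine tRNA mt-Tt lies at chrM:15289-15355 and follows mt-Cytb without a gap, and the aspartate tRNA mt-Td lies at chrM:6942-7011, both on the plus strand.
mt-Tt: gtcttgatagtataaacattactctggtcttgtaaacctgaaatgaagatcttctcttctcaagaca
mt-Td: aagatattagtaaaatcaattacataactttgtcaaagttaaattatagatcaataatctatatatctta

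Part of the members have a near-identical copy in the nuclear genome, which limits what their counts mean. The annotation lists 7 such pseudogenes side by side on chr1:24611535-24616197, minus strand. The copies of mt-Co3, mt-Atp6, mt-Co2, mt-Nd4l and the first 876 bases of mt-Nd4 differ from the mitochondrial sequence at 0 positions, the copy of mt-Nd3 at 1 position, and the copy of the last 492 bases of mt-Co1 has 4 mismatches and 2 gap bases. The authors discarded reads that map to several places, so reads that match both places equally would be lost for both genes. Mt-Co3 still held 220313 counts, beside 6183 on its copy. Not all its reads were thus lost, and where they lay was not tested. Mt-Nd4 has 502 bases after the end of its copy, whereas mt-Co3, mt-Atp6, mt-Co2, mt-Nd3 and mt-Nd4l have 1 to 3, and the counts of these 7 members are uncertain. Together they held 22.8% of the mt- counts, and the members with no copy listed held 77.2%. The pseudogenes themselves held 11964 counts, or 0.171% of the mt- counts. Bases between the listed pseudogenes were not compared with the members. Copies of genes that lie between these members, such as mt-Td between mt-Co1 and mt-Co2, were thus not looked for.

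The share of library counts on mt- genes had its highest group mean in each stimulation at 6 h. In unstimulated EGCs of 6 h it was 7.56%, 6.39%, 4.83% and 16.8% in replicates 1 to 4. In H-CM EGCs of 6 h it was 6.75%, 7.99%, 7.25% and 5.87%. In TME-CM EGCs of 6 h it was 10.7%, 11.1%, 15.2% and 25%. All TME-CM libraries of 6 h thus lay above all H-CM libraries of that time, and unstimulated replicate 4 lay among the TME-CM libraries. At 12 h the unstimulated libraries gave 2.79%, 1.93%, 2.45% and 3.18%, and the H-CM libraries 3.10%, 3.30%, 6.88% and 3.51%. The TME-CM libraries of 12 h gave 2.85%, 2.15%, 3.23% and 2.04%. H-CM replicate 3 stood apart there, with a share in the range of the H-CM libraries of 6 h. At 24 h the shares were 1.95%, 2.93%, 2.66% and 2.66% in unstimulated EGCs, 3.43%, 2.95%, 3.05% and 2.81% in H-CM EGCs and 2.75%, 1.94%, 2.76% and 2.42% in TME-CM EGCs. The H-CM libraries of 24 h lay above all TME-CM libraries, by a small margin. The 95% Wilson interval of a share was 0.793 percentage points wide in H-CM replicate 4 of 6 h and at most 0.166 in every other library, well under the spread between replicates.

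**Figure D1:**
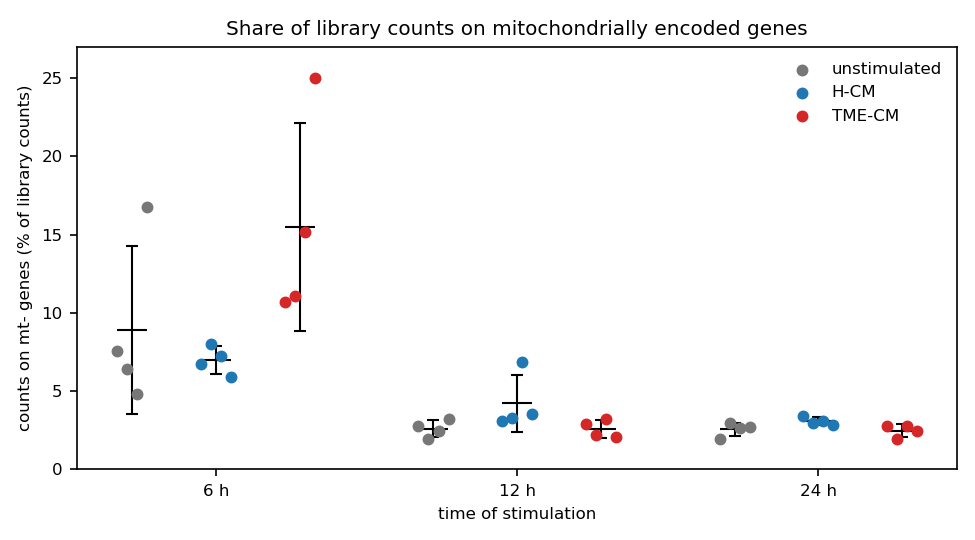
Share of library counts on mt- genes (y axis, percent) by time of stimulation (x axis), each point 1 library, bars the mean and SD of 4 libraries. The 4 TME-CM libraries of 6 h sit between 10.7% and 25%, all above the H-CM libraries of 6 h, and all libraries of 12 h and 24 h but H-CM replicate 3 of 12 h sit under 4%.

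From 6 h to 12 h, this share fell in unstimulated and TME-CM EGCs before adjustment for the number of comparisons. It went from 8.90% ± 5.38 to 2.59% ± 0.529 (SD, n = 4 each) in unstimulated EGCs, from 6.96% ± 0.892 to 4.20% ± 1.79 in H-CM EGCs and from 15.5% ± 6.67 to 2.57% ± 0.568 in TME-CM EGCs. Two-sided exact permutation p-values were 0.0286, 0.0857 and 0.0286, and after Benjamini-Hochberg adjustment over 6 comparisons of time the lowest was 0.0857. With 4 against 4 libraries 0.0286 is the smallest p possible, so a threshold of 0.05 could be passed after adjustment only if at least 4 of the 6 comparisons reached it. Counting the protein-coding members alone, the exact permutation p was 0.0571 in unstimulated, 0.0286 in H-CM EGCs and 0.0286 in TME-CM EGCs. Without unstimulated replicate 4 of 6 h the fall in unstimulated EGCs was -3.67 percentage points in place of -6.31 (exact permutation p = 0.0286 for both). Between 12 h and 24 h the exact permutation p was 0.886, 0.114 and 0.771 in the same order, with differences of -0.0395, -1.14 and -0.103 percentage points. Without H-CM replicate 3 of 12 h the second of these was -0.243 (exact permutation p = 0.229).

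Gene by gene, most mitochondrially encoded RNAs fell from 6 h to 12 h in unstimulated and TME-CM EGCs, and a few in H-CM EGCs. In edgeR's quasi-likelihood test over all 36 libraries, with Benjamini-Hochberg adjustment over 13469 genes, 25 members were tested, and 21 of them fell in TME-CM EGCs, where 4.28% of all genes fell and 10% were called in either direction. In unstimulated EGCs 17 of 25 fell, where 0.215% of all genes fell and 0.535% were called, and in H-CM EGCs 5 of 25, where 0.0445% fell and 0.134% were called. Estimates lay below 0 for 23, 21 and 24 of the 25 members in unstimulated, H-CM and TME-CM EGCs, and no member rose by the test. At an unadjusted p under 0.05 there were 21, 14 and 22 members, beside 11.3%, 9.85% and 26.8% of genes. The median log2 change of the 25 members was -1.99 in unstimulated, -1.16 in H-CM EGCs and -2.74 in TME-CM EGCs, against 0.01, 0.10 and 0.07 over all genes. The other 12 members, all tRNA genes, did not pass the filter on low counts, 3 of them at 0 and the others with 12 to 140 counts over the 36 libraries. All members of a library are read against the same total, so the members called are not separate evidence.

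Both rRNAs fell in unstimulated and TME-CM EGCs, while neither passed the test after H-CM. In unstimulated EGCs, mt-Rnr2 stood at 33657, 20727, 23494 and 61629 CPM at 6 h and at 10048, 7511, 9287 and 9544 CPM at 12 h. In TME-CM EGCs it stood at 40337, 42464, 54920 and 106150 CPM at 6 h and at 10545, 8363, 11061 and 6792 CPM at 12 h. In H-CM EGCs it stood at 23336, 33742, 28973 and 24264 CPM at 6 h and at 11834, 10260, 34397 and 11542 CPM at 12 h. Unstimulated and TME-CM libraries did not overlap between the times, while H-CM replicate 3 of 12 h reached the level of 6 h. The log2 change of mt-Rnr2 was -2.20 (SE 0.35, adjusted p = 0.00043) in unstimulated EGCs and -2.96 (SE 0.36, adjusted p = 1.24e-06) in TME-CM EGCs, but -1.04 (SE 0.34, adjusted p = 0.267) in H-CM EGCs. Mt-Rnr1 followed with -2.16, -3.23 and -0.87 in unstimulated, TME-CM and H-CM EGCs, and the last of these did not pass (adjusted p = 0.498).

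The complex IV subunit mt-Co1 was called in all 3 stimulations. Its 4 libraries of 6 h gave 3185, 3739, 1353 and 6720 CPM in unstimulated EGCs, against 806, 567, 815 and 1051 CPM at 12 h. In H-CM EGCs they gave 3872, 3706, 3328 and 2071 CPM, against 862, 975, 1356 and 1127 CPM. In TME-CM EGCs they gave 6310, 5069, 9089 and 6620 CPM, against 841, 735, 1018 and 729 CPM. No library of 12 h reached a library of 6 h in any stimulation. The log2 change of mt-Co1 was -2.50 (SE 0.30, adjusted p = 9.04e-07) in unstimulated, -2.06 (SE 0.29, adjusted p = 9.75e-05) in H-CM EGCs and -3.25 (SE 0.31, adjusted p = 7.62e-10) in TME-CM EGCs. Mt-Co2 also fell in all 3, by 2.03, 1.70 and 2.76 on the log2 scale, whereas mt-Co3 passed in unstimulated (-1.99) and TME-CM EGCs (-1.91) and missed in H-CM EGCs (-1.27, adjusted p = 0.056).

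Among the complex I subunits, mt-Nd1 fell in each stimulation. It stood at 4682, 6469, 2679 and 10284 CPM at 6 h and 1696, 1576, 1737 and 2380 CPM at 12 h in unstimulated EGCs. It stood at 6019, 5368, 5481 and 4291 CPM at 6 h and 2144, 2073, 2774 and 2623 CPM at 12 h in H-CM EGCs. It stood at 6912, 7965, 10133 and 9629 CPM at 6 h and 1852, 1825, 2209 and 2166 CPM at 12 h in TME-CM EGCs. The times did not overlap in any of the 3, and the log2 changes were -1.99, -1.55 and -2.33 with adjusted p = 3.59e-06, 0.00109 and 8.73e-08. Mt-Nd5 was the other complex I subunit called in H-CM EGCs (-1.31, adjusted p = 0.0418). Mt-Nd2, mt-Nd3, mt-Nd4 and mt-Nd4l fell in unstimulated and TME-CM EGCs, by 1.70 to 2.03 and by 2.26 to 2.66 on the log2 scale. In H-CM EGCs they lay between -1.47 and -0.67 and did not pass. Mt-Nd6 passed in TME-CM EGCs only (-3.18, SE 0.89, adjusted p = 0.0181), from few counts: its libraries gave 0, 19.7, 11.3 and 61.4 CPM at 6 h and 2.23, 2.54, 5.34 and 2.32 CPM at 12 h, so that the times overlapped through the library at 0.

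For complexes III and V the pattern was like that of complex I. Mt-Cytb fell by 1.88 in unstimulated and 2.74 in TME-CM EGCs and missed in H-CM EGCs (-1.29, adjusted p = 0.123). Mt-Atp6, the subunit that forms the proton path of ATP synthase, fell by 1.73, 1.22 and 2.19 in unstimulated, H-CM and TME-CM EGCs. Mt-Atp8 fell by 1.69 in unstimulated and 2.49 in TME-CM EGCs, beside -0.58 in H-CM EGCs.

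Of the 10 tRNA genes tested, 6 fell in TME-CM EGCs (mt-Td, mt-Tg, mt-Ti, mt-Tl1, mt-Tm and mt-Tt), 3 in unstimulated EGCs (mt-Td, mt-Tm and mt-Tt) and 0 in H-CM EGCs. Mt-Tt, whose sequence is given above, stood at 77.9, 18.2, 103 and 136 CPM at 6 h and at 0.809, 0, 2.09 and 5.42 CPM at 12 h in TME-CM EGCs. In unstimulated EGCs it stood at 17.1, 43.3, 0 and 188 CPM at 6 h and at 1.5, 3.8, 2.35 and 3.02 CPM at 12 h. The TME-CM libraries did not overlap between the times, and among unstimulated libraries only replicate 3 of 6 h, at 0 in a library of 256453 counts, was not above those of 12 h. Its log2 change was -5.51 (SE 0.96, adjusted p = 0.000427) in TME-CM and -4.72 (SE 0.93, adjusted p = 0.00574) in unstimulated EGCs. Mt-Td fell by 4.24 and 2.95 in the same groups and mt-Tm, which carries the methionine tRNA, by 3.19 and 2.83. The mt-Ta, mt-Tp, mt-Tq and mt-Tv genes were not called in any comparison of these times.

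**Figure D2:**
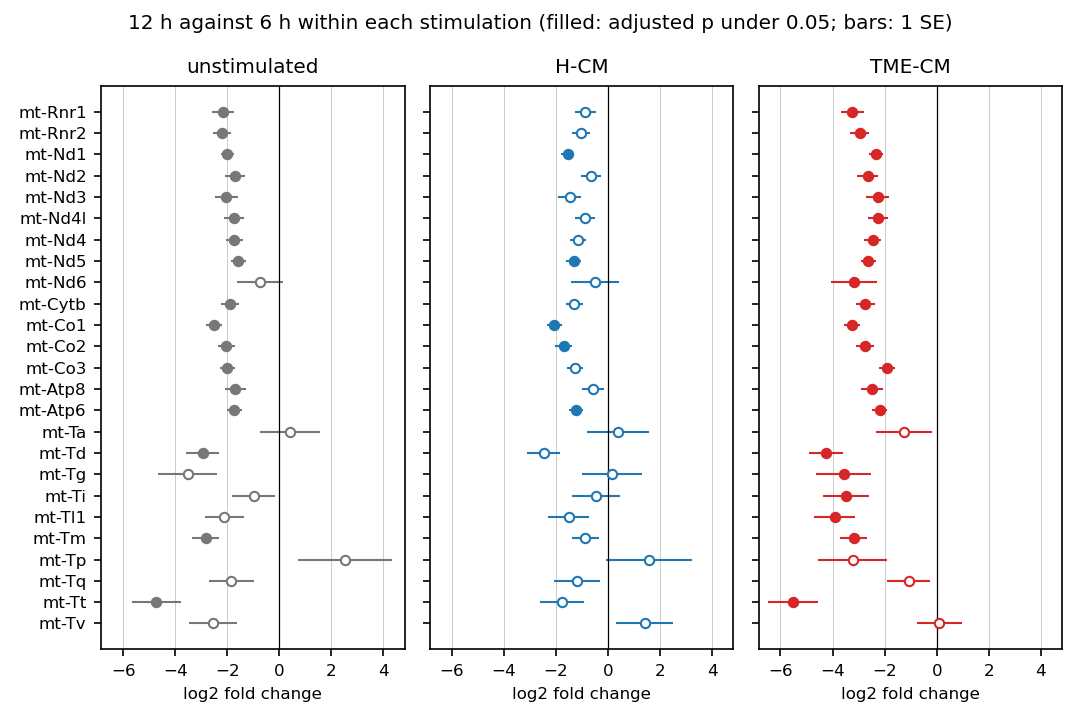
Log2 fold change of each tested mt- gene at 12 h against 6 h (x axis) in unstimulated, H-CM and TME-CM EGCs (panels), with bars of 1 SE and filled points for an adjusted p under 0.05 in edgeR. Filled points number 17, 5 and 21, and all of them lie left of 0.

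The counts of called members rested in part on the model. With only the 2 groups compared in the fit, the 17 members of unstimulated EGCs became 6 and the 5 of H-CM EGCs became 2. The share of all genes called in these and the following refits is not given here, so these counts are set only against the main counts. In H-CM EGCs leaving out 1 library moved the count between 2 and 8. Without H-CM replicate 4 of 6 h it was 8, and it was 2 without replicate 1, 2 or 3 of 6 h or replicate 2 of 12 h, and 3 without replicate 1 or 4 of 12 h. Between 12 h and 24 h, 0 of 25 members were called by edgeR in each stimulation, with 0, 5 and 0 at an unadjusted p under 0.05 in unstimulated, H-CM and TME-CM EGCs, beside 0.742%, 0.861% and 1.53% of genes, and 0%, 0% and 0.0148% of all genes were called.

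At 6 h, mt- genes took 2.22 times the share of counts in TME-CM EGCs that they took in H-CM EGCs, a difference of 8.52 percentage points (two-sided exact permutation p = 0.0286, adjusted over 9 comparisons of stimulation p = 0.103). TME-CM exceeded unstimulated EGCs by 6.59 percentage points (exact permutation p = 0.171), and H-CM EGCs lay 1.93 below unstimulated EGCs (p = 0.8, same test). Single libraries moved these values. Without TME-CM replicate 4 the difference of TME-CM from H-CM EGCs was 5.34 (exact permutation p = 0.0286) and that from unstimulated EGCs 3.41 (exact permutation p = 0.371). Without unstimulated replicate 4 the difference of TME-CM from unstimulated EGCs was 9.22 (exact permutation p = 0.0857), and H-CM EGCs lay 0.70 above instead of below unstimulated EGCs (exact permutation p = 0.457). Without unstimulated replicate 3 the latter was -3.29 (exact permutation p = 0.257). The difference of TME-CM from H-CM EGCs was 3.17 percentage points on protein-coding members and 5.33 on rRNA members alone, each with an exact permutation p of 0.0286. With the counts of Yam1, an entry that took 11% to 48.6% of single libraries of 6 h, left out of the total, the groups overlapped and the difference was 6.89 (exact permutation p = 0.114). On TMM-scaled library sizes it was 9.29 (exact permutation p = 0.0857), and without TME-CM replicates 1 and 3 it was 11.1 (exact permutation p = 0.0667).

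In edgeR over the 12 libraries of 6 h, 0 of the 21 members tested were called in TME-CM against H-CM EGCs, where 0.0972% of 9256 genes were called, and 8 had an unadjusted p under 0.05, as had 6.07% of the genes. The estimate was above 0 for 20 of the 21, with a median log2 change of 0.94 against 0.13 over all genes. Mt-Nd2 had the lowest p, with 9213, 7130, 14181 and 15263 CPM in TME-CM EGCs and 4145, 4840, 4295 and 4143 CPM in H-CM EGCs. These groups did not overlap, and the log2 change was 1.29 (SE 0.43, adjusted p = 0.569). Mt-Rnr1 gave 1.42 (SE 0.48, adjusted p = 0.592), from 13197, 18566, 23143 and 70662 CPM in TME-CM and 8284, 12987, 11583 and 13168 CPM in H-CM EGCs, where the lowest TME-CM library lay just above the highest H-CM library. Taken one gene at a time as a share of library counts, 15 of 22 members were higher with an exact permutation p of 0.0286, beside 5.85% of all genes that were higher by this rule. This count shares the library totals with the value above and is the same difference seen gene by gene. Against unstimulated EGCs, 0 of 21 members were called by edgeR in TME-CM EGCs (0.454% of genes) and 0 of 21 in H-CM EGCs (0% of genes). At an unadjusted p under 0.05 these were 3 members in TME-CM EGCs, beside 6.19% of genes, and 0 members in H-CM EGCs, beside 0.627% of genes.

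**Figure D3:**
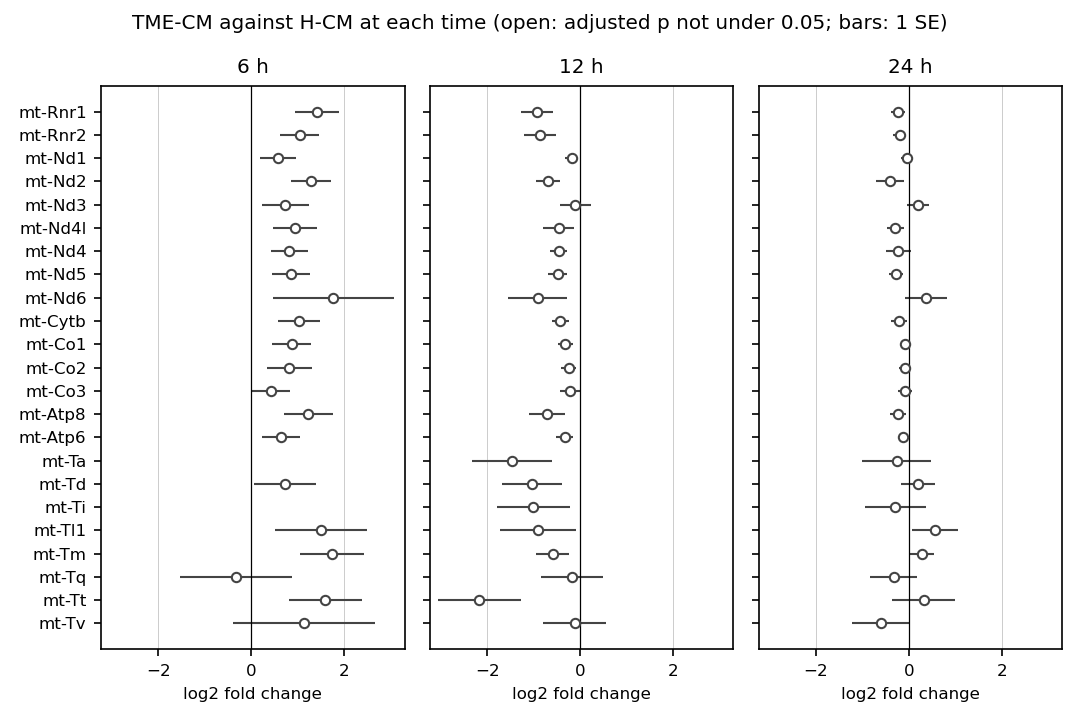
Log2 fold change of each tested mt- gene in TME-CM against H-CM EGCs (x axis) at 6, 12 and 24 h (panels), with bars of 1 SE. No point passed an adjusted p of 0.05 in edgeR, and estimates lay above 0 for 20 of 21 members at 6 h and below 0 for 23 of 23 at 12 h.

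At 12 h the difference pointed the other way. TME-CM EGCs lay 1.63 percentage points below H-CM EGCs (exact permutation p = 0.0571), H-CM EGCs lay 1.61 above unstimulated EGCs (exact permutation p = 0.0571), and TME-CM and unstimulated EGCs differed by -0.019 (exact permutation p = 1). Without H-CM replicate 3 the difference between TME-CM and H-CM EGCs was -0.733 (exact permutation p = 0.114) and that between H-CM and unstimulated EGCs 0.714 (exact permutation p = 0.0857). With edgeR, 0 of 23 members were called in TME-CM against H-CM EGCs (1.89% of 12156 genes), 0 of 23 against unstimulated EGCs (4.41%) and 0 of 23 in H-CM against unstimulated EGCs (0.403%). At an unadjusted p under 0.05 there were 7, 0 and 5 members, beside 10.6%, 12.3% and 5.66% of genes. All 23 estimates of TME-CM against H-CM EGCs lay below 0, with a median of -0.48 against 0.00 over all genes. Mt-Nd2 stood at 2725, 1279, 3300 and 1318 CPM in TME-CM EGCs and at 2569, 4321, 3955 and 3413 CPM in H-CM EGCs of 12 h. These groups overlapped, and its log2 change was -0.68 (SE 0.26, adjusted p = 0.29).

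At 24 h, TME-CM EGCs lay 0.592 percentage points below H-CM EGCs without overlap (exact permutation p = 0.0286, adjusted p = 0.103 over 9 comparisons with the same test), while the other 2 differences were -0.0822 (TME-CM against unstimulated, exact permutation p = 0.743) and 0.51 (H-CM against unstimulated, exact permutation p = 0.0571). Without unstimulated replicate 1 the last of these was 0.309 (exact permutation p = 0.114). On TMM-scaled library sizes the difference of TME-CM from H-CM EGCs was -0.319 (exact permutation p = 0.0857), and on protein-coding members alone -0.301 (exact permutation p = 0.143). The H-CM libraries of 24 h also held more genes at equal depth, 11647 on average against 11412 in TME-CM EGCs (exact permutation p = 0.0286), and the part of this in the share was not tested. With edgeR, 0 of 23 members were called in any comparison of 24 h although 5.4%, 9.52% and 2.03% of 12713 genes were called in TME-CM against H-CM, TME-CM against unstimulated and H-CM against unstimulated EGCs. At an unadjusted p under 0.05 there were also 0 members in each, beside 16%, 19.2% and 10.6% of genes. The median log2 change of the members was -0.20, -0.07 and 0.11.

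The change of the TME-CM effect with time was tested as such per gene, and was planned as a value only for the share of counts. The difference of TME-CM from H-CM EGCs in share of counts changed by -9.11 percentage points from 6 h to 24 h and by -10.1 from 6 h to 12 h. Two-sided exact permutation of stimulation labels, done separately at each time, gave p = 0.000408 and p = 0.000816. These p-values were added to the plan. Their null is no stimulation effect at either time, so they do not test whether the effect was equal at both. With Yam1 left out of the totals these exact permutation p-values were 0.0608 and 0.0261, and on TMM-scaled sizes 0.018 and 0.00653. From 12 h to 24 h the difference changed by 1.03 (exact permutation p = 0.472). Per gene, edgeR called 0 of 23 members for the change from 6 h to 24 h, where 0% of genes were called, and 10 had an unadjusted p under 0.05, beside 8.43% of genes. In the model of 36 libraries the change from 6 h to 12 h, a comparison added after the data were seen, was called for mt-Rnr1 (-2.36, SE 0.59, adjusted p = 0.0498) and mt-Rnr2 (-1.91, SE 0.48, adjusted p = 0.0458), 2 of 25 members beside 0.319% of genes called in this direction. The rRNAs took 4.92% of library counts in H-CM replicate 3 of 12 h and 17.7% in TME-CM replicate 4 of 6 h, each the highest of its group. No library was left out for this comparison, so whether the calls rest on single libraries was not tested. In the same model 0 of 25 members were called for TME-CM against unstimulated EGCs, beside 75 of 13469 genes. For H-CM against unstimulated EGCs 0 members were called, beside 0 genes. At an unadjusted p under 0.05 there were 20 members for TME-CM against H-CM EGCs, beside 2262 of 13469 genes. For TME-CM and H-CM against unstimulated EGCs there were 4 and 6 members, beside 1926 and 719 genes. There mt-Rnr1 and mt-Rnr2 gave -1.08 (SE 0.58, adjusted p = 0.409) and -0.75 (SE 0.48, adjusted p = 0.486) for TME-CM against unstimulated EGCs.

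Other measures moved with the share at 6 h. The 4 libraries of 6 h in which Yam1 took less than 15% of counts (unstimulated replicate 4 and TME-CM replicates 1, 3 and 4) had mt- shares of 16.8%, 10.7%, 15.2% and 25%, and the other 8 had 4.83% to 11.1%. Without these 4 libraries, the fall from 6 h to 12 h in unstimulated EGCs was 3.67 percentage points (exact permutation p = 0.0286). TME-CM EGCs of 6 h were then left with 1 library, so no count of members called is given. Malat1, a nuclear long noncoding RNA, took 1.07% of counts in TME-CM against 0.385% in H-CM EGCs of 6 h (exact permutation p = 0.0286) and 0.121% in TME-CM EGCs of 12 h (exact permutation p = 0.0286). With time, genes expected in 250000 counts went from 10134 at 6 h to 11162 at 12 h in unstimulated EGCs (exact permutation p = 0.0286), from 10343 to 11254 in H-CM EGCs (exact permutation p = 0.0857) and from 9191 to 11202 in TME-CM EGCs (exact permutation p = 0.0571). Of the 10 smooth muscle and fibroblast markers, 9 had a higher median at 12 h than at 6 h over all stimulations, among them Acta2 (1514 and 2824 CPM) and Myh11 (20.3 and 76.7 CPM), and Col1a1 did not. Their summed share of counts ranged from 0.23% to 1.0% at 6 h and from 0.84% to 1.4% at 12 h in unstimulated EGCs, from 0.48% to 1.1% and from 0.78% to 1.1% in H-CM EGCs, and from 0.66% to 1.1% and from 0.76% to 1.1% in TME-CM EGCs, so that the times overlapped in each. The part of Yam1, Malat1, these markers, genes at equal depth and library totals in the share on mt- genes was not tested.

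**Figure D4:**
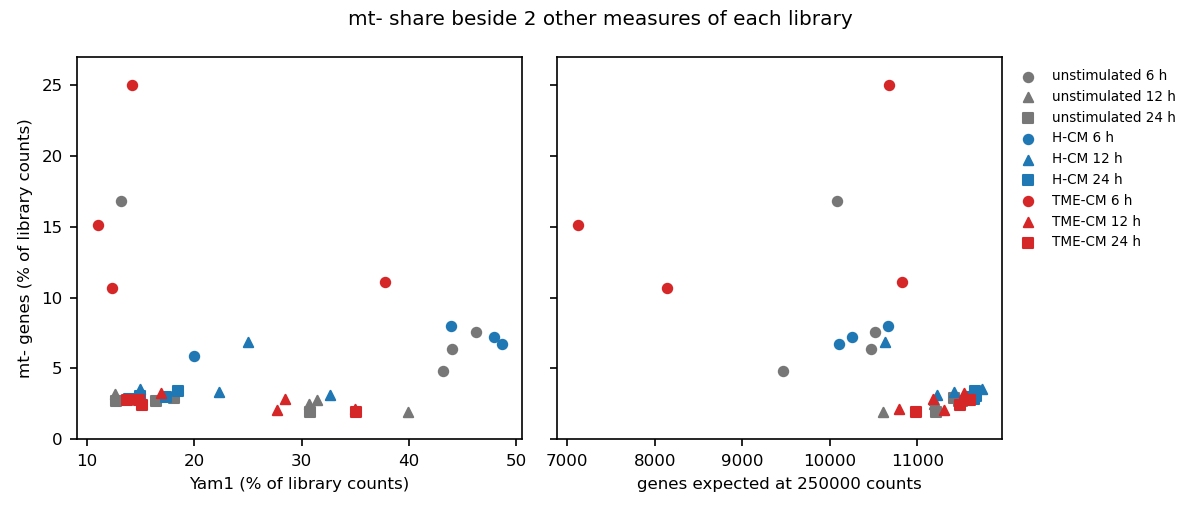
Share of library counts on mt- genes (y axis, percent) against the share on Yam1 (left, percent) and the number of genes expected at 250000 counts (right), 1 point per library, coloured by stimulation and shaped by time. The 4 libraries of 6 h with under 15% on Yam1 lie between 10.7% and 25%, and H-CM replicate 4 of 6 h is not drawn on the right because its total is under 250000 counts.

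Within the mt- counts themselves, few comparisons of make-up between stimulations passed, which does not show that the make-up was equal. Libraries varied widely, and at 6 h the rRNA share of mt- counts ran from 44.5% to 70.7% in single libraries. Each member's share of all mt- counts was compared where it had a mean of at least 20 counts over the 8 libraries, and 1 of 168 comparisons between stimulations had an exact permutation p under 0.05, unadjusted. That was mt-Tv, the valine tRNA, at 0.0122% of mt- counts in unstimulated and 0.00239% in TME-CM EGCs of 6 h. The rRNAs made up 57.2%, 56.3% and 56.9% of mt- counts at 6 h in unstimulated, H-CM and TME-CM EGCs, 51.4%, 55.4% and 51.0% at 12 h and 43.9%, 45.8% and 45.8% at 24 h. Means thus stood lower at 24 h than at 6 h in each stimulation, but for neighbouring times the lowest of 6 exact permutation p-values was 0.0857 (24 h against 12 h in unstimulated EGCs). The ratio of mt-Rnr2 to mt-Rnr1 counts had group means between 2.19 and 2.47, and the lowest of its 15 exact permutation p-values was 0.171.

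With time, 7 of 111 comparisons of shares within the mt- counts had an exact permutation p of 0.0286, unadjusted. In TME-CM EGCs mt-Co3 took 3.04%, 2.85%, 2.48% and 1.83% at 6 h and 3.78%, 5.70%, 3.18% and 5.78% at 12 h. Mt-Atp6 took 2.51%, 2.38%, 1.83% and 1.66% at 6 h and 2.91%, 3.20%, 2.76% and 3.47% at 12 h. For both genes every library of 12 h lay above every library of 6 h, and both have a nuclear copy with 0 differences over nearly the whole gene. In H-CM EGCs mt-Co1 went the other way, from 4.62% ± 0.901 at 6 h to 2.73% ± 0.535 at 12 h (SD, n = 4). The remaining 4 comparisons concerned mt-Tm in H-CM EGCs and mt-Tq in TME-CM EGCs at 12 h against 6 h, and mt-Atp6 in H-CM EGCs and mt-Nd6 in TME-CM EGCs at 24 h against 12 h, all with a higher share at the later time. With the mt- total as library size, edgeR called 2 of 25 members in unstimulated, 2 in H-CM EGCs and 6 in TME-CM EGCs at 12 h against 6 h. On that scale 69.8%, 51.1% and 86.8% of all genes were called. The lower members were mt-Tt in unstimulated (-2.30, adjusted p = 0.0176) and TME-CM EGCs (-2.57, adjusted p = 0.00632), mt-Td in TME-CM EGCs (-1.48, adjusted p = 0.0493) and mt-Co1 in H-CM EGCs (-0.77, adjusted p = 0.0186).

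**Figure D5:**
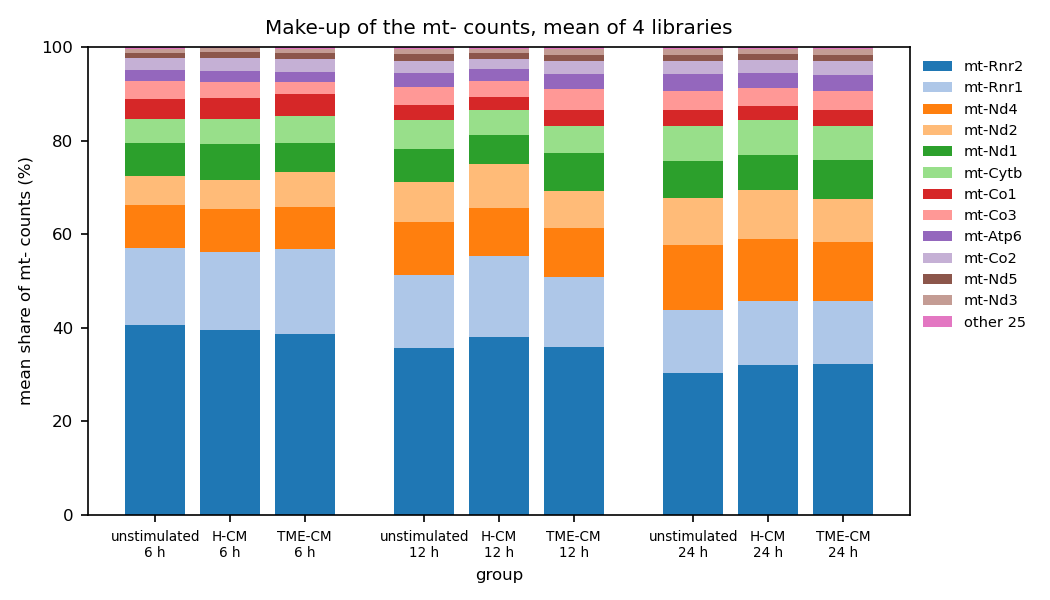
Mean share of mt- counts (y axis, percent) held by each of the 12 largest members and by the other 25 together, stacked for the 9 groups (x axis), means of 4 libraries. Mt-Rnr2 and mt-Rnr1 together make up 57.2%, 56.3% and 56.9% at 6 h and 43.9%, 45.8% and 45.8% at 24 h.

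Nuclear genes that build or run the same machinery were compared in the same fits, from lists of 151 genes of the respiratory chain, mitochondrial transcription, RNA processing, biogenesis and stress. Of the 78 subunits of complexes I to V on these lists, 74 were tested at 6 h, 76 at 12 h and 77 at 24 h, and edgeR called 0 in each comparison of stimulations. In TME-CM against H-CM EGCs, 11, 2 and 1 of them had an unadjusted p under 0.05 at 6, 12 and 24 h, beside 6.07%, 10.6% and 16% of all genes, and in the other comparisons 0 to 2, beside 0.627% to 19.2%. Their median log2 change in TME-CM against H-CM EGCs took the values 0.34, -0.04 and 0.00 at the 3 times, beside 0.13, 0.00 and 0.00 over all genes, where the mt- genes had 0.94, -0.48 and -0.20. Over all lists, 0, 2 and 2 genes were called in TME-CM against H-CM EGCs at 6, 12 and 24 h, of 128, 145 and 146 tested, with 0.0972%, 1.89% and 5.4% of all genes called. Both genes were the same at 12 h and 24 h. Sod2, the superoxide dismutase of the mitochondrial matrix, rose to 785 ± 98.8 CPM in TME-CM against 124 ± 42.5 in H-CM EGCs of 12 h (SD, n = 4, log2 change 2.71, adjusted p = 1.27e-06) and to 657 ± 87.2 against 130.5 ± 39.8 CPM at 24 h (2.44, adjusted p = 9.13e-09). Bnip3, a receptor for the removal of mitochondria, rose to 91.1 ± 3.00 against 37.4 ± 6.40 CPM at 12 h (1.36, adjusted p = 0.00106) and to 84.6 ± 5.23 against 41.2 ± 7.95 CPM at 24 h (1.15, adjusted p = 5.22e-05). In none of these 4 comparisons did the libraries overlap. Against unstimulated EGCs, TME-CM EGCs had 0, 3 and 6 called genes at 6, 12 and 24 h (0.454%, 4.41% and 9.52% of all genes), among them Cmpk2, a mitochondrial nucleotide kinase, which rose by 3.49 and 2.55 on the log2 scale at 12 h and 24 h from at most 2.11 CPM in unstimulated libraries. The 6 genes of 24 h were 4 higher and 2 lower, the lower being Atf5, a transcription factor of the mitochondrial stress response (-0.70, adjusted p = 0.00519), and Rexo2, a mitochondrial exonuclease for short RNAs (-0.36, adjusted p = 0.0357). Sod2 (2.93), Bnip3 (1.82) and Bnip3l (0.66, adjusted p = 0.0232), a relative of Bnip3, were the other higher genes. H-CM against unstimulated EGCs gave 0, 0 and 1 (0%, 0.403% and 2.03% of all genes), the last being Bnip3 (0.66, adjusted p = 0.0279), a call lost without H-CM replicate 1 or unstimulated replicate 2, 3 or 4 of 24 h. Tfam and Polrmt, the transcription factor and the RNA polymerase of mitochondria, were not called, with log2 changes of 0.22 and 0.22 in TME-CM against H-CM EGCs of 24 h (adjusted p = 0.66 and 0.782), nor was Ppargc1a, a coactivator of mitochondrial biogenesis (-1.16, adjusted p = 0.0683).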

How the data were processed

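The authors prepared libraries with the QuantSeq 3′ mRNA kit, checked reads with FastQC 0.11.7, aligned them to mm10 with HISAT2, handled alignments with SAMtools 1.5, discarded reads that map to several places, and counted reads per gene with HT-seq Count. They deposited raw counts, without normalization. Annotation, overlap mode, strand setting and molecular identifiers are not given in the sources used here.

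Groups came from the sample labels. Counts were tested in R 4.3.3 with edgeR 4.0.16 (quasi-likelihood, robust, TMM, filterByExpr with a minimum count of 10, Benjamini-Hochberg): one model of 12 libraries per time for stimulations, one of 36 for times, and one of 16 for the change of an effect. The tests were checked on simulated data. Alternatives were DESeq2 1.42.0 and those given in the closing section. Shares of counts were compared by two-sided exact permutation tests over 70 splits (Python 3.11.15, numpy 2.4.6, pandas 2.3.3, scipy 1.17.1). CPM printed are scaled to 1000000 counts of the library total. Fold changes of edgeR use TMM-scaled sizes. Depth per library and its precision are given above. Genes named were all protein-coding and rRNA members, tRNA genes that pass the filter, and from the nuclear lists up to 3 called genes per direction with at least 5 CPM. Tfam, Polrmt, Lrpprc, Ppargc1a, Sod2 and Cmpk2 were also to be named. Members and lists were chosen with earlier results of these data known.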

Additional observations from a re-analysis of the deposited data

Results flagged for a closer look

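In 153 sets of 4 libraries, 9 held 1 library far from the other 3, where chance gives about 1 in 20 sets. Mt- genes took 6.88% of the counts of H-CM replicate 3 of 12 h, beside 3.10% to 3.51% in the other 3. The rRNAs made up 44.6% of mt- counts in unstimulated replicate 4 of 12 h, beside 53.3% to 54.2%. Unstimulated replicate 2 of 6 h held 10.1% of its mt- counts on mt-Nd1, beside 5.54% to 6.19%, and 12.9% on mt-Nd4, beside 7.57% to 8.16%. Mt-Nd4 took 4.85% in TME-CM replicate 4 of 6 h, beside 10.2% in each of the others. Unstimulated replicate 1 of 24 h held 2.28% on mt-Nd3, beside 0.865% to 0.941%, and 0.250% on mt-Nd4l, beside 0.145% to 0.152%. Mt-Atp8 took 0.155% in unstimulated replicate 2 of 12 h, beside 0.107% to 0.115%. Mt-Nd5 took 0.883% in H-CM replicate 4 of 6 h, the library of 13518 counts, beside 1.39% to 1.44%.

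The difference of TME-CM from H-CM EGCs in the share of library counts on mt- genes changed between times. It changed by -9.11 percentage points for 24 h against 6 h and by -10.1 for 12 h against 6 h. The exact permutation tests given in the report do not test whether the effect was equal at both times.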

How the results depend on the processing

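Of 720 alternative values for 57 single-gene changes, 638 kept direction and side of the threshold, 82 lost the call and 0 reversed. All 239 alternative values of the share on mt- genes stayed without a call, as the main values were, and their direction was not counted. The smallest exact permutation p possible is 0.0286 with 4 against 4 or 3 against 4 libraries. After adjustment, a call thus needs several comparisons of a family at this minimum together. The missing calls therefore cannot show that the shares were robust to the processing. Some of the alternative values changed sign when 1 library was left out. H-CM against unstimulated EGCs of 6 h ranged from -3.29 to 0.70 percentage points, and TME-CM against unstimulated EGCs of 12 h from -0.238 to 0.179. Counts of members and of nuclear-list genes in the refits below are given without the share of all genes called there. A change in these counts can thus not be told apart from a change in calls over all genes. Calls of members between stimulations were 0 in each comparison, but without the filter on low counts they were 2 (TME-CM against H-CM, 6 h), 3 (same, 12 h) and 2 (H-CM against unstimulated, 12 h), and with all 36 libraries in 1 model 3 (TME-CM against H-CM) and 1 (TME-CM against unstimulated) at 6 h. At 12 h against 6 h, the 5 members of H-CM EGCs became 12 without the filter, 10 with DESeq2's Wald test and 2 with only the groups compared, and 10 without H-CM replicate 4 of 6 h and replicate 3 of 12 h together, a set chosen after seeing the data, and the 17 of unstimulated EGCs became 6 with only the groups compared. H-CM EGCs at 24 h against 12 h gave 2 without the filter. Leaving out 1 library gave 12 to 17 members in unstimulated, 2 to 8 in H-CM and 19 to 21 in TME-CM EGCs at 12 h against 6 h, and 0 to 1 for the interaction of TME-CM against H-CM with time, 6 h and 24 h (1 without TME-CM replicate 2 of 6 h). Replicate numbers did not meet the rule for pairing, all 4 pairs over 0.1, in any comparison: the correlation of same-numbered libraries lay between -0.161 and 0.230. Every library correlated best with its own number in H-CM EGCs at 24 h against 12 h (8 of 8) and 7 of 8 did in H-CM against unstimulated EGCs of 24 h, but 1 to 5 in the other comparisons. Macrophage markers took 0.0161% to 0.0382% of counts in replicates 1 and 2 and 0.0062% to 0.0143% in replicates 3 and 4 of 12 h and 24 h in all stimulations, a hint from the data that numbers share a source, which the labels do not state. With the replicate number as a block, members called at 12 h against 6 h in H-CM EGCs were 3 and in unstimulated EGCs 16, and 0 shares within the mt- counts passed between stimulations or times, where 0.125 is the smallest p that 4 pairs allow. Between stimulations, the 1 share within the mt- counts became 3 with protein-coding counts as denominator, 2 as log2 ratio and 0 with edgeR on the mt- total, and 0 to 4 without 1 library, while the 7 between times became 4 to 10. For the nuclear lists, all 36 libraries in 1 model gave 12, 1 and 1 calls in TME-CM against H-CM EGCs at 6, 12 and 24 h, 4 and 2 against unstimulated EGCs at 6 h and 24 h, and 0 in H-CM against unstimulated EGCs of 24 h, and DESeq2's Wald test gave 1 (TME-CM against H-CM, 6 h) and 3 (H-CM against unstimulated, 24 h). Leaving out 1 library gave 0 to 2, 2 to 3 and 2 to 4 (TME-CM against H-CM), 0 to 1, 2 to 4 and 4 to 8 (TME-CM against unstimulated) at 6, 12 and 24 h, and 0 to 1 for H-CM against unstimulated EGCs of 24 h. The cause of these changes was not tested. DESeq2's size factors moved the median of all genes by -0.12 (unstimulated) and -0.11 (H-CM) at 12 h against 6 h, by -0.10 and -0.12 for TME-CM against H-CM and unstimulated EGCs at 6 h, and no called member changed sign.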

Other observations

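Nuclear genes of the same machinery were also compared with time in TME-CM EGCs. Between 6 h and 12 h, 17 of 147 tested genes of the nuclear lists were called by edgeR in the model of 36 libraries, 5 higher and 12 lower, beside 10% of all genes. The median log2 change of the 147 was -0.15 against 0.07 over all genes. Of the 78 subunits of complexes I to V tested, 10 were called, beside the same 10% of all genes. Of these subunits 9 were lower, beside 4.28% of all genes called lower, and 1 was higher. Lower were Cox8a of complex IV (-1.24, adjusted p = 0.0136), from 496 ± 260 CPM at 6 h to 240 ± 21.7 at 12 h (SD, n = 4), Ndufb5 of complex I (-1.11, adjusted p = 0.0148) and Uqcrc2 of complex III (-1.06, adjusted p = 0.0388), and Ndufa10 of complex I was higher (0.75, adjusted p = 0.0313). The libraries of 6 h and 12 h overlapped for Cox8a, Ndufb5 and Uqcrc2 and not for Ndufa10. Lrpprc, which with Slirp stabilizes mitochondrial mRNAs, fell by 1.32 (adjusted p = 0.0124) and Slirp by 1.08 (adjusted p = 0.0491), both with overlapping libraries. Elac2, the enzyme that cuts mitochondrial precursors at the 3′ end of tRNAs, rose by 2.12 (adjusted p = 0.0464) from at most 5.30 CPM at 6 h. In unstimulated and H-CM EGCs, 0 of these 147 genes were called between 6 h and 12 h, where edgeR called 0.535% and 0.134% of all genes, and 18 and 13 had an unadjusted p under 0.05, beside 11.3% and 9.85% of all genes, and whether the changes differ between stimulations is not shown by these counts.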
